A study of Mus musculus with 30 samples.

Results

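The comparison described here sets differentiating mouse muscle cells given 5 µM of hexavalent chromium against the same cells given 2 µM, both on day 2 of differentiation. It uses 6 of the study's 30 RNA-seq libraries, 3 for each dose, chosen by the dose and day in their labels. The cells were C2C12, an established line of mouse myoblasts, the precursors of muscle fibres, and hexavalent chromium was added as potassium chromate to a low-serum medium with horse serum, in which these cells leave the cell cycle and fuse. The study sampled day 0 and then days 1, 2 and 4 at 0, 2 or 5 µM, with 3 libraries in each of 10 groups. The 3 libraries at 0 µM on day 2 had the same medium without chromate and show where the 2 µM level lay. The libraries of a group are labelled as biological replicates. The labels do not say whether they came from cultures grown at different times. The limma p-values below thus measure the spread between libraries of a group, pooled per gene over 28 libraries of the 10 groups and moderated.

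Myoblasts that are deprived of growth factors switch on myogenin (Myog), stop dividing, fuse through the membrane proteins myomaker and myomixer, and then build sarcomeres, the contractile units of muscle. Chromate enters cells through anion carriers that normally carry sulfate and is reduced inside them to trivalent chromium, which binds DNA and protein. Cells that meet oxidants or electrophiles use the factor NRF2 to raise detoxifying enzymes, and they adjust amino acid supply through the factor ATF4.

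The 6 libraries held between 23318567 and 25542305 reads each. Levels are given as scaled CPM, the authors' counts set relative to library size with a further scaling per library, and 1 read was worth 0.0392 to 0.0441 scaled CPM. Differences are on the scale of log2(scaled CPM + 1) with their standard error, which understates the change of genes at low levels. A gene is called different where limma's Benjamini-Hochberg adjusted p over all 12820 genes tested was below 0.05. Replicates correlated at 0.980 to 0.987. The muscle markers Des, Cdh15, Myog, Myod1, Acta1, Myh3 and Ckm were each at 100 scaled CPM or more in all 6 libraries. Among markers of other cells, 8 of 12 adipocyte genes were at 0 in all 6 libraries, Adipoq and Fabp4 among them. So were 6 of 13 leukocyte genes and 4 of 9 endothelial genes, and 1 of the 13 was not found in the data. The same held for 5 of 12 neural and 3 of 10 lung and other epithelial genes. The fatty acid carrier Cd36, which muscle also makes, was the only called adipocyte member (-1.49, limma adjusted p = 7.78e-06), and its adjusted p was 0.352 with all 30 libraries. The summed level of the leukocyte list was 2.94 to 4.83 at 2 µM and 3.94 to 7.36 at 5 µM. That of the endothelial list was 0.75 to 2.49 and 1.36 to 1.97. That of the fibroblast list, much of which C2C12 cells express themselves, was 2505 to 2787 at 2 µM and 3003 to 3313 at 5 µM, with Ly6a its only called member. The neural list went from 113 to 129 at 2 µM to 160 to 172 at 5 µM, with the tubulin gene Tubb3 its only called member. In bulk RNA, fewer cells of a kind and less RNA per cell cannot be told apart.

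Between 2 and 5 µM the cells had lower RNA levels of muscle structural genes, of the listed mitosis genes and of amino acid supply genes, and higher levels of a smaller set that included NRF2 targets and the host transcripts of small nucleolar RNAs. Of the 12820 genes tested, 689 (5.37%) were called higher at 5 µM and 1178 (9.19%) lower, or 14.6% in either direction. Counts of list members below are to be read beside these shares. The called decreases were the larger ones. Their median difference was -0.79, against 0.45 for the called increases, and 417 genes (3.25%) fell 2-fold or more where 39 (0.304%) rose as far. The 3 replicates of each dose did not overlap in 1909 higher genes (14.9%) and 2292 lower genes (17.9%). The 12 largest rises and 12 largest falls were picked among such genes, so their lack of overlap was fixed by the choice. The number of higher calls depended on single libraries: it was 431 without replicate 1 at 5 µM and 442 without replicate 3 at 2 µM.

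**Figure D1:**
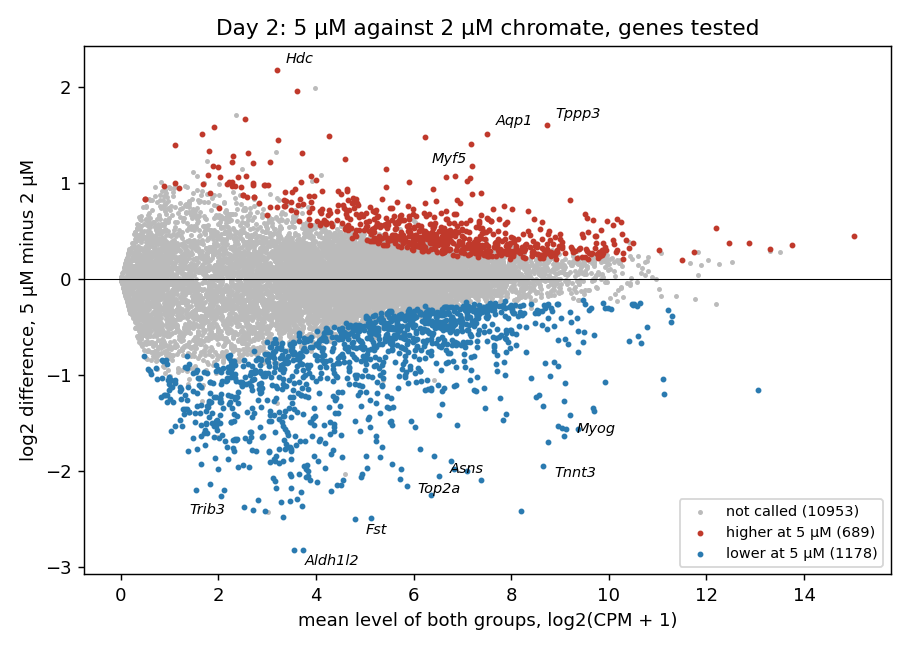
Log2 difference between 5 and 2 µM on day 2 (vertical axis) against mean log2(scaled CPM + 1) (horizontal axis), 1 point per gene tested, with called genes in colour and some named. The 417 genes that fell 2-fold or more outnumber the 39 that rose as far.

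The first step of dose had moved fewer genes past the test. At 2 µM against 0 µM, 58 genes (0.452%) were higher and 72 (0.562%) lower, and at 5 µM against 0 µM the calls numbered 1440 (11.2%) and 1889 (14.7%). These comparisons share libraries with that of 5 against 2 µM, so their values stand side by side below and are not independent of it. Among genes called lower at 5 than at 2 µM, the median difference of 2 against 0 µM was -0.21, and among those called higher it was 0.10.

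**Figure D2:**
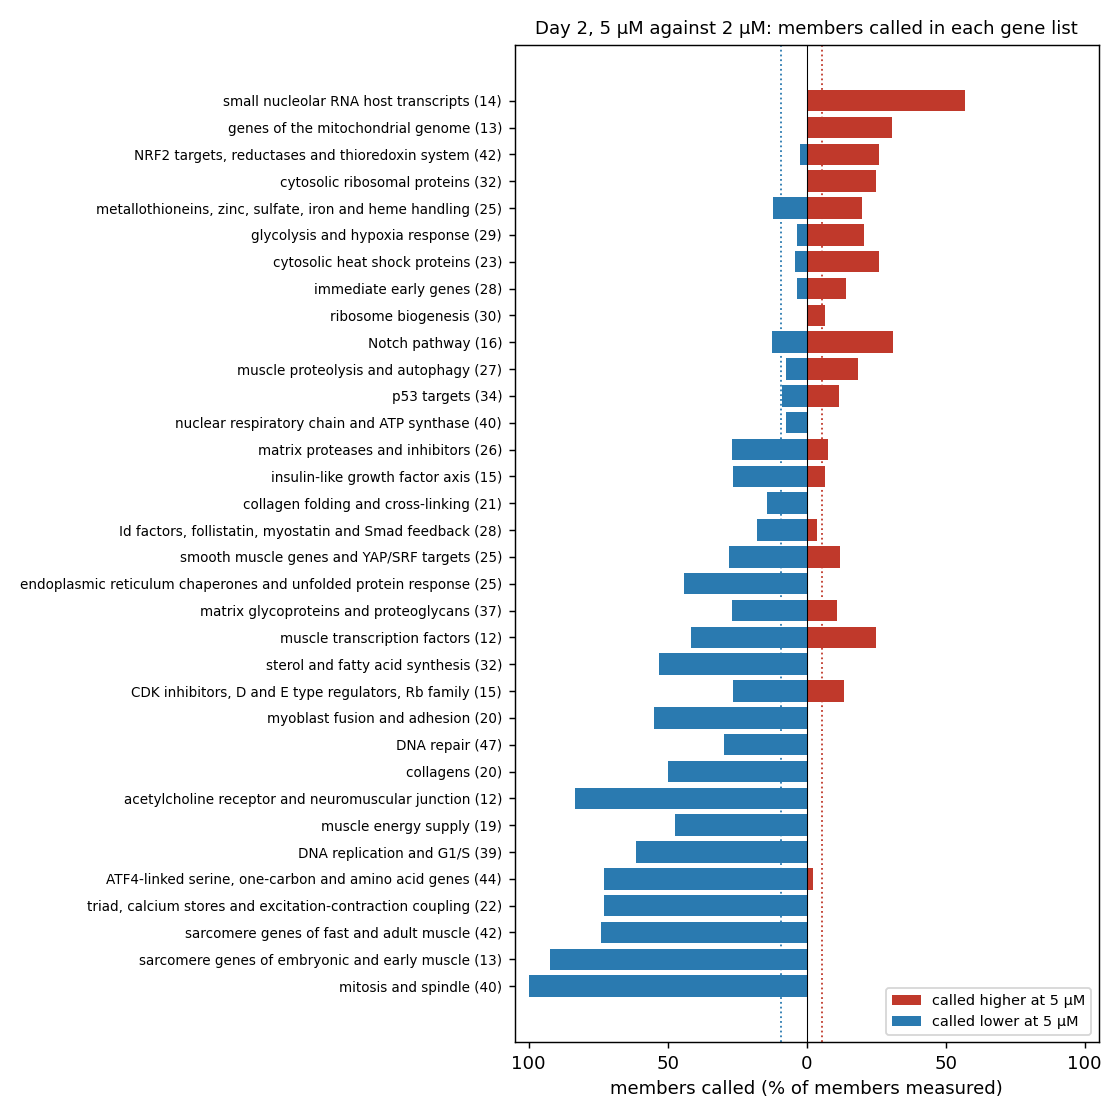
Percentage of the measured members of each gene list called higher or lower at 5 than at 2 µM on day 2, with dotted lines at the share over all genes tested. Lower calls reach 40 of 40 for mitosis, 12 of 13 for embryonic sarcomere genes and 32 of 44 for amino acid genes, and higher calls 8 of 14 for small nucleolar RNA hosts.

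Of 12 measured muscle transcription factors, 5 were lower at 5 µM and 3 higher. Myog, the factor that starts terminal differentiation, was at 821, 854 and 880 scaled CPM at 2 µM and at 274, 334 and 352 at 5 µM, a 2.66-fold lower mean (-1.42 ± 0.10, limma adjusted p = 3.58e-13). All 3 libraries at 5 µM lay below all 3 at 2 µM, and these in turn lay below the controls at 1190 to 1253. Mef2c, which works with Myog on muscle promoters, fell from 70.3, 66.2 and 65.7 to 24.1, 23.0 and 23.7. Myf5, a factor of the undifferentiated myoblast, moved the other way: it was at 66.9, 70.2 and 58.3 at 2 µM and at 141, 131 and 138 at 5 µM (1.06 ± 0.12, adjusted p = 1.45e-08), with controls at 40.1 to 46.5. Its 3 groups did not overlap. Myod1, the factor that commits cells to muscle, fell less, by 0.37 on the log2 scale (adjusted p = 0.00673), from 161, 172 and 198 to 122, 145 and 142. The controls, at 163 to 199, overlapped the 2 µM libraries. The call for Myod1 was lost without replicate 3 at 2 µM (-0.29, adjusted p = 0.0824) and without replicate 1 at 5 µM (-0.29, adjusted p = 0.0773). The higher count was 1 without replicate 1 at 5 µM. Tcf12, an E-protein partner of these factors, and the homeobox factor Six4 were higher by 0.30 and 0.40, and Pax7, Myf6 and Mef2d did not pass the test. The call for Six4 was lost without replicate 2 (0.38, adjusted p = 0.0848) or 3 (0.38, adjusted p = 0.0897) at 2 µM and without replicate 1 (0.34, adjusted p = 0.134) or 2 (0.41, adjusted p = 0.0580) at 5 µM.

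**Figure D3:**
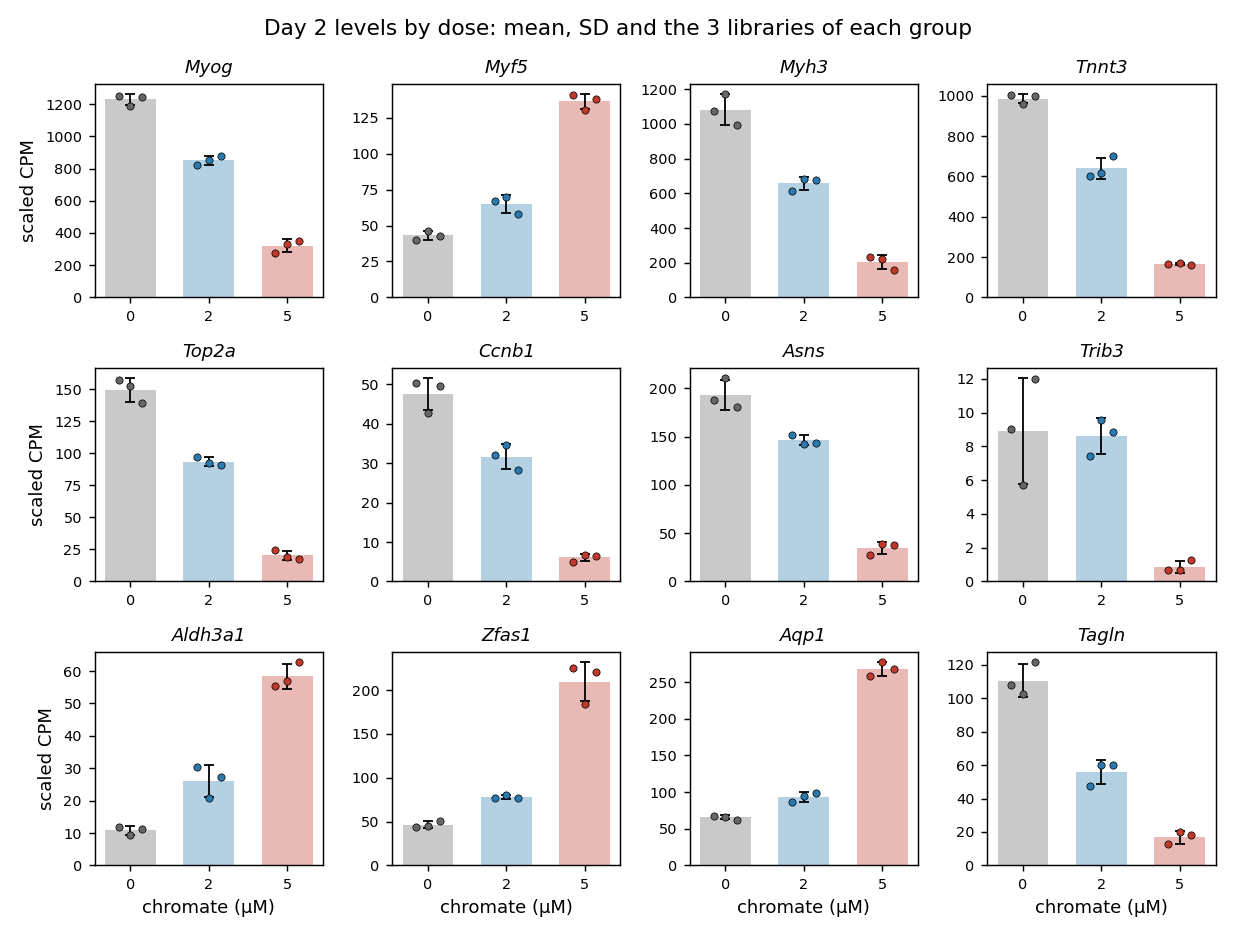
Scaled CPM on day 2 at 0, 2 and 5 µM for 12 genes, 1 point per library with the mean as a bar on a linear axis from 0. Myog, Tnnt3, Myh3 and Asns step down with each dose, Trib3 drops between 2 and 5 µM, and Zfas1, Aqp1 and Aldh3a1 step up.

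Genes of fusion and the muscle membrane were lower in 11 of 20 measured members and higher in 0, with a list median of -0.33 where the median over all genes was -0.00. Both fusion proteins were among them. Myomixer, listed as Gm7325, was at 64.6, 63.6 and 73.9 at 2 µM and at 23.8, 28.0 and 26.5 at 5 µM (-1.34 ± 0.18, limma adjusted p = 4.41e-07), and the controls were at 128 to 154. Myomaker, listed as Tmem8c, went from 602, 637 and 699 to 319, 361 and 351 (-0.91 ± 0.11, adjusted p = 4.18e-08). The doses did not overlap for either gene. Cav3, the caveolin of the muscle surface, fell by 2.09 on the log2 scale, Dysf, which reseals torn membrane, by 1.46, and the adhesion molecule Ncam1 by 1.34. The receptors Cdh15, Cdon, Cdh2 and Itgb1 were lower by between 0.26 and 0.54, while Myof, Dock1, Kirrel and Boc did not pass.

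Contractile genes fell across thick filament, thin filament and Z-disc. Of 13 embryonic and early sarcomere genes, 12 were lower and 0 higher, with a median of -1.37, and of 42 genes of the mature sarcomere 31 were lower and 0 higher, with a median of -1.02. The slow myosin heavy chain Myh7 went from 22.5, 22.1 and 22.1 at 2 µM to 1.49, 3.48 and 2.20 at 5 µM (-2.82 ± 0.28, limma adjusted p = 1.74e-09). Its controls were at 26.2 to 37.3, and the difference of 2 against 0 µM was not called (-0.44, adjusted p = 0.705). The embryonic heavy chain Myh3 was at 612, 683 and 675 and then at 231, 221 and 160, below controls of 996 to 1174. The embryonic light chain Myl4 went from 465, 497 and 526 to 77.2, 102 and 98.4. Both fell with each step of dose without overlap. For Myl4 the lack of overlap between 2 and 5 µM was fixed by its choice among the largest falls. Fast troponin T, Tnnt3, was 3.89-fold lower, from 603, 617 and 699 to 165, 168 and 161 (-1.95 ± 0.10, adjusted p = 1.03e-16). The Z-disc protein gene Myoz2 was 6.02-fold lower, from 54.8, 58.0 and 62.7 to 7.70, 10.8 and 10.6. Skeletal actin, Acta1, fell by 1.20 on the log2 scale, from 3162, 3066 and 3148 to 1252, 1465 and 1380. Within the mature list the giant proteins differed: Neb, the ruler of the thin filament, fell by 1.59, whereas Ttn, the spring of the sarcomere, was at -0.04 and Flnc at -0.05, neither called. Des, the muscle intermediate filament, fell by 0.32, and the heavy chains Myh1 and Myh4 fell by 1.02 and 0.85 while Myh2 was at -0.05 and not called. Genes of this family are near copies of each other, and how the authors' counting split shared reads is not known.

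Calcium handling, the nerve contact and muscle energy supply followed the same direction. Of 22 calcium genes 16 were lower and 0 higher, with a median of -0.78. Casq1, the calcium buffer of the store, went from 10.9, 13.7 and 14.5 to 3.37, 3.76 and 1.54, and the release channel Ryr1 from 105, 101 and 114 to 34.3, 32.9 and 25.2. The voltage sensor Cacna1s fell by 1.84 on the log2 scale. None of these 3 genes overlapped between doses. Of 12 genes of the neuromuscular junction 10 were lower, with a median of -0.57. The fetal acetylcholine receptor subunit Chrng fell from 287, 289 and 334 to 119, 127 and 139, while Ache, the enzyme that removes the transmitter, was at -0.05 and not called. That count fell to 5 without replicate 3 at 2 µM and to 6 without replicate 1 at 5 µM. Of 19 energy genes 9 were lower, led by myoglobin (Mb, -1.97), the muscle subunit Cox6a2 (-1.87), glycogen phosphorylase (Pygm, -1.53) and muscle creatine kinase (Ckm, -1.40).

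Promoters of 2 of these genes are printed to show the E-box letters CAGCTG, a form that muscle factors such as Myog and Myod1 are known to bind. They are RefSeq sequences of build GRCm38.p6, the 120 bases before the start, read 5′ to 3′ on the gene's strand, with the E-box in capitals. The build behind the deposited values is not given in the sources used here.
Myoz2, chr3:123034988-123035107, minus strand: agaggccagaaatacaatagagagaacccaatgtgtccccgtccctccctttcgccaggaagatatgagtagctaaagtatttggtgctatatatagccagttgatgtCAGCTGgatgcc
Tnni1, chr1:135799301-135799420, plus strand: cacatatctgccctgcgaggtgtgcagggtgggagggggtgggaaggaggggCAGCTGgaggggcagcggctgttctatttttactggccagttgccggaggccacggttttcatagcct
Tnni1, slow troponin I, fell by 1.56 on the log2 scale. The letters were searched in the 250 bases before the start, on either strand (CAGCTG reads the same on both). They were present in 5 of 16 promoters (31.2%) of the embryonic list and 12 of 34 (35.3%) of the mature list. Among promoters found for genes tested the share was 12.5%. Overlapping promoters of Tnni1 hold the same site, which is counted for each. By gene the counts were 4 of 13 (30.8%) and 12 of 29 (41.4%), beside 14.7% of genes tested with a promoter. Promoters were at hand for 9675 of the 12820 genes tested and for 29 of the 42 mature sarcomere genes. A match describes letters and does not show binding.

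Mitosis genes had the lowest median of the 40 lists. All 40 measured mitosis and spindle genes were lower at 5 µM, with a median of -1.85 and a range from -2.48 to -1.21, and in all 40 the replicates of the doses did not overlap. Summed over the list the level was 888 to 974 scaled CPM at 2 µM and 226 to 250 at 5 µM, with controls at 1444 to 1489. Top2a, the topoisomerase that untangles chromosomes, was at 97.2, 92.0 and 91.1 at 2 µM and at 24.3, 19.4 and 17.7 at 5 µM (-2.15 ± 0.13, limma adjusted p = 6.58e-15). Ccnb1, the cyclin of mitotic entry, went from 32.2, 34.5 and 28.3 to 4.99, 6.80 and 6.48, and its partner kinase Cdk1 from 43.6, 55.2 and 46.7 to 16.5, 14.6 and 21.2. For each of the 3, all libraries at 5 µM lay below those at 2 µM, and these below all controls. Kif2c, a motor that corrects spindle attachments, fell by 2.48, and the centromere histone Cenpa, from 14.9, 10.8 and 10.7 to 1.31, 1.04 and 2.03, by 2.42. Iqgap3, a scaffold protein outside the list, fell by 2.36. At 2 against 0 µM, 7 of the 40 were called lower and 0 higher, with a median of -0.64.

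DNA replication genes were lower less uniformly. Of 39 members 24 were lower and 0 higher, with a median of -0.72. Tk1, the thymidine kinase made in S phase, went from 14.8, 14.5 and 15.9 to 2.98, 2.68 and 1.28 (-2.32 ± 0.24, limma adjusted p = 2.11e-09). The helicase subunit Mcm5 fell from 34.5, 29.6 and 28.1 to 10.8, 13.0 and 9.65. Pcna, the sliding clamp that also serves repair, fell by only 0.39, from 80.1, 91.2 and 92.3 to 58.1, 71.8 and 70.2. The doses did not overlap for these 3 genes, which for Tk1 was fixed by its choice among the largest falls. Of 47 DNA repair genes 14 were lower and 0 higher, and that count was 8 without replicate 2 at 2 µM. Those with the largest falls, Fancd2, Exo1, Fanca, Fanci, Brip1 and Rad54l, between -1.50 and -1.21, act on crosslinks and broken forks and are also made mainly in dividing cells. Excision repair was mixed, with Neil3 (-1.05), Neil1 (-0.96), Ercc2 (-0.79) and Lig3 (-0.36) lower and Xpc (0.42), Ogg1 (-0.21), Ercc1 (-0.03) and Xrcc1 (0.03) not called.

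Of 15 genes that control entry into the cycle, the CDK inhibitors, the D cyclins with their kinases and the Rb family, 4 were lower and 2 higher. Cdkn1a, the p21 inhibitor, was at 1635, 1835 and 2097 at 2 µM and at 1158, 1211 and 1325 at 5 µM (-0.59 ± 0.08, limma adjusted p = 1.42e-06), and its controls, at 1746 to 1879, lay within the 2 µM range. Cdkn1c, the p57 inhibitor, was at -0.42 and not called. Ccnd1, cyclin D1, was higher, from 65.6, 70.3 and 65.2 to 91.1, 91.1 and 99.8 (0.48 ± 0.10, adjusted p = 0.000861), without overlap. Among 34 p53 targets 4 were higher and 3 lower, with a median of -0.01, close to that of all genes. Over all genes tested 5.37% were higher and 9.19% lower. The higher ones were Plk2 (0.73), Trp53inp1 (0.68), Epha2 (0.49) and Mdm2 (0.28). Mdm2, which marks p53 for destruction, had an adjusted p of 0.0419 and lost its call without replicate 1 at 5 µM (0.22, adjusted p = 0.219), and also without each of 4 other libraries, all but replicate 2 at 5 µM. The higher count was 2 without replicate 1 at 2 µM, where Epha2 was also not called (0.33, limma adjusted p = 0.0746). The lower ones were Ckap2 (-1.68), a spindle protein, Pmaip1 (-0.66) and Cdkn1a (-0.59).

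Promoters of Cdk1 and Kif2c are shown for the letters TTTGAA, the core of the CHR element known from cell cycle genes. The 120 bases before the start are from RefSeq, GRCm38.p6, with the element in capitals on either strand (TTCAAA is its reverse complement).
Cdk1, chr10:69352913-69353032, minus strand: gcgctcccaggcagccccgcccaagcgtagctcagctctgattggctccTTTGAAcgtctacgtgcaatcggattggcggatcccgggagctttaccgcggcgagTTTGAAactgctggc
Kif2c, chr4:117178773-117178892, minus strand: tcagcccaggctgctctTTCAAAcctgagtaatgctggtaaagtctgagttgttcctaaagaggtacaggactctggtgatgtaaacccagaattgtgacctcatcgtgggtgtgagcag
Within 250 bases before the start, TTTGAA on either strand was present in 11 of 35 promoters (31.4%) of the mitosis list. These came from 33 of the 40 mitosis genes. Among promoters found for genes tested the share was 10.5%. Overlapping promoters of Ect2 hold the same site, which is counted for each. By gene the count was 10 of 33 (30.3%), beside 12.6% of genes tested with a promoter. Letters this short match often, and most mitosis promoters lack them in this window.

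Amino acid supply was the third large group that fell. Of 44 ATF4-linked genes of serine, one-carbon, proline and amino acid metabolism, 32 were lower at 5 µM and 1 higher, with a median of -0.78, whereas at 2 against 0 µM 2 were lower and 0 higher, with a median of -0.12. Asns, asparagine synthetase, was at 152, 143 and 144 at 2 µM and at 27.5, 39.2 and 38.0 at 5 µM, a 4.19-fold lower mean (-2.05 ± 0.11, limma adjusted p = 1.03e-16), and controls were at 180 to 211. Trib3, a kinase-like inhibitor of ATF4 and AKT, went from 7.44, 9.58 and 8.83 to 0.657, 0.680 and 1.28, with controls at 5.72 to 12.0 that overlapped the 2 µM libraries. Atf4 itself was at 251, 279 and 297 and then at 139, 137 and 150 (-0.95 ± 0.08, adjusted p = 3.41e-11). The controls of Atf4, at 259 to 290, lay within the 2 µM range, so the step was between 2 and 5 µM.

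The lowered genes covered each branch of the group. In serine synthesis, Phgdh went from 205, 227 and 220 to 44.0, 56.6 and 62.2, Psph fell by 1.32 and Psat1 by 1.03. In the mitochondrial one-carbon pathway, Aldh1l2 had the largest fall of all genes called, from 19.2, 20.3 and 19.2 to 1.71, 1.64 and 2.42 (-2.82 ± 0.21, limma adjusted p = 1.23e-12), beside Mthfd2 (-2.25) and Shmt2 (-1.16). In proline synthesis Pycr1 fell from 11.3, 9.22 and 8.70 to 0.0875, 0.920 and 2.91, and Aldh18a1 by 1.13. The doses did not overlap for these named genes, which the choice of Aldh1l2 and Pycr1 among the largest falls required. Of the transporters, Slc7a5, which brings in large neutral amino acids, went from 246, 268 and 286 to 51.3, 64.6 and 71.5, its partner Slc3a2 fell by 0.85, and the glutamine carrier Slc1a5 by 1.20. Chac1, which breaks down glutathione, went from 35.8, 35.3 and 37.0 to 5.95, 7.84 and 8.64. Enzymes that charge transfer RNA fell less, between -0.68 for Mars and -0.35 for Eprs, and Wars, at -0.13, was not called. Stress factors of the same pathway did not follow: Ddit3 was at 8.38, 9.69 and 9.16 and at 10.5, 8.96 and 11.1 (0.15, adjusted p = 0.755), overlapping, and Atf3, Cebpb and Ppp1r15a were not called. The 1 member called higher was Vldlr, a lipoprotein receptor (0.76, adjusted p = 0.0400).

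The promoters of Asns, Pycr1 and Slc7a11 show the CARE element that ATF4 binds with a C/EBP partner, searched as TGATGNAA on both strands and set in capitals. They are RefSeq sequences of GRCm38.p6, the 120 bases before the start.
Asns, chr6:7693210-7693329, minus strand: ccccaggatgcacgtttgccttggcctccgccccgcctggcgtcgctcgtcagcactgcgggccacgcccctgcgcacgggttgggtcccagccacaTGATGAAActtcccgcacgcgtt
Pycr1, chr11:120643749-120643868, minus strand: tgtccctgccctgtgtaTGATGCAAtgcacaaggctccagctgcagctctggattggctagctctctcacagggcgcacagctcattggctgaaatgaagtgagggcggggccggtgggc
Slc7a11, chr3:50443614-50443733, minus strand: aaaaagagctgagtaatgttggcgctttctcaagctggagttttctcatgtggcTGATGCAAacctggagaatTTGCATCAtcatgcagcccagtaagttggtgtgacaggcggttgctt
In the 250 bases before the start the letters were present in 11 of 44 promoters (25.0%) of the amino acid list. These promoters came from 37 of the 44 genes measured. Among promoters found for genes tested the share was 1.9%. The Slc7a11 stretch holds 2 matches facing each other. Slc7a11, the cystine carrier, is counted in both the ATF4 and the NRF2 lists and went from 2.90, 2.67 and 4.12 to 0.394, 0.200 and 0.970 (-1.49 ± 0.34, limma adjusted p = 0.00169), without overlap.

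Chaperones of the endoplasmic reticulum were lower in 11 of 25 members and higher in 0, with a median of -0.19 over all 25. By limma the called falls ran from -0.79 for Sdf2l1 to -0.25 for Atf6, with the disulfide isomerases Pdia5 (-0.78) and Pdia6 (-0.65) and the degradation factor Herpud1 (-0.77) near the larger end. Sdf2l1 lost its call without replicate 2 (-0.78, adjusted p = 0.0661) or 3 (-0.73, adjusted p = 0.0917) at 2 µM and without replicate 1 (-0.45, adjusted p = 0.284) or 3 (-0.79, adjusted p = 0.0541) at 5 µM. Pdia5 lost its call without replicate 2 or 3 at 2 µM or replicate 1 at 5 µM, and under quantile normalization. Its limma adjusted p there was up to 0.269. Hspa5, the main chaperone, went from 895, 871 and 850 to 755, 735 and 634. Sterol and fatty acid synthesis genes were lower in 17 of 32 members and higher in 0, with a median of -0.32. Among them were the desaturase Fads2 (-0.58) and Dhcr7 (-0.61) and Cyp51 (-0.56) of sterol synthesis.

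Only some genes of the oxidant response were called on day 2. Of 42 NRF2 targets and related reductases 11 were higher and 1 lower, with a median of 0.20. Aldh3a1, an aldehyde dehydrogenase, was at 30.4, 20.8 and 27.3 at 2 µM and at 55.5, 57.0 and 62.8 at 5 µM (1.15 ± 0.15, limma adjusted p = 6.43e-07). It had already risen at 2 µM from controls of 9.42 to 11.9 (1.19, adjusted p = 1.95e-05), so its 3 groups did not overlap. Tkt, transketolase, which feeds NADPH supply, went from 22.8, 30.1 and 32.8 to 55.4, 53.5 and 58.9, and the glutathione transferase Gstm1 from 81.7, 70.5 and 75.4 to 129, 120 and 126. The autophagy adaptor Sqstm1 (0.62), the epoxide hydrolase Ephx1 (0.62), the ferritin light chain Ftl1 (0.47), G6pdx (0.41), Prdx1 (0.31) and Txnrd1 (0.24) were higher as well. Some of the best known members were not called. Nqo1, the quinone reductase, was at 9.73, 11.0 and 9.36 and at 15.4, 12.0 and 12.6 (0.37, adjusted p = 0.201), and Hmox1, heme oxygenase, at 50.5, 50.6 and 51.9 and at 43.5, 53.6 and 57.8 (0.01, adjusted p = 0.981). The Nqo1 libraries did not overlap between doses although the test was not passed, and those of Hmox1 did. The glutathione synthesis genes Gclc, Gclm and Gsr, between 0.13 and 0.16, were not called. The core letters of the antioxidant response element, TGACNNNGC on either strand, were present in 10 of 42 promoters (23.8%) of the list. These promoters came from 34 of the 42 genes. Among promoters found for genes tested the share was 11.6%.

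Metal handling showed the same modest scale, with 5 of 25 members higher and 3 lower. Metallothionein Mt2 went from 92.3, 80.5 and 84.3 to 125, 129 and 160 (0.68 ± 0.12, limma adjusted p = 4.18e-05). The adjusted p of Mt2 was 0.205 when the fit took in all 30 libraries. Mt1 was at 119, 110 and 150 and at 149, 156 and 175 (0.35, adjusted p = 0.0218). With all 30 libraries the limma adjusted p of Mt1 was 0.447. Its doses overlapped, and its call was lost without replicate 1 at 2 µM (0.31, adjusted p = 0.0897), replicate 2 at 2 µM (0.25, adjusted p = 0.172) or replicate 3 at 5 µM (0.28, adjusted p = 0.124). The zinc exporter Slc30a1 was higher by 0.68, and its call was lost without replicate 1 at 2 µM (0.51, limma adjusted p = 0.0649). Tfrc, the transferrin receptor that brings in iron, was lower, from 287, 264 and 246 to 197, 167 and 167, and had already fallen from controls of 385 to 398. The metal importer Slc11a2 fell by 0.70 and the iron reductase Steap3 by 0.37. The higher count was 3 without replicate 1 at 2 µM. Cytosolic heat shock genes were higher in 6 of 23 members and lower in 1 (0 without replicate 2 at 2 µM or replicate 1 or 2 at 5 µM), with Hspa1b, from 29.8, 33.5 and 38.8 to 51.5, 50.3 and 51.0, at 0.58. Without replicate 1 at 2 µM its call was lost (0.49, limma adjusted p = 0.0797). Hspa1b and Hspa1a are near-identical copies, so the split of reads between them is uncertain. Hspb1, a small heat shock protein, was higher by 0.47.

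Among RNAs of ribosome supply, host transcripts of small nucleolar RNAs stood at higher levels. Of 14 measured hosts 8 were higher and 0 lower, with a median of 0.74, and all 14 differences were above 0. Zfas1 went from 76.9, 80.9 and 77.3 to 225, 184 and 220 (1.40 ± 0.14, limma adjusted p = 9.82e-10) and had been at 43.7 to 51.0 in controls. Gas5 went from 86.7, 85.3 and 94.7 to 172, 174 and 198, and Snhg4 from 3.35, 4.00 and 4.70 to 12.5, 13.2 and 12.2. None of the 3 overlapped between doses, which the choice of Zfas1 and Snhg4 among the largest rises required. These transcripts are known for being degraded during translation once their introns have been removed. Genes of ribosomal proteins were higher in 8 of 32 members and lower in 0, by small amounts (median 0.20), and the count ranged from 2 without replicate 3 at 5 µM to 17 in a fit to day 2 alone. It was 3 without replicate 3 at 2 µM and 5 without replicate 2 at 5 µM. Ribosome biogenesis genes were higher in 2 of 30, and in 1 without replicate 2 or 3 at 2 µM, where 5.37% of all genes tested were higher.

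The share of values from the mitochondrial genome was 8.27% ± 0.0754 (SD, n = 3) at 2 µM and 10.3% ± 0.856 (SD, n = 3) at 5 µM, with 7.83% ± 0.71 (SD, n = 3) in controls. The difference of 2.07 percentage points between doses had an exact two-sided permutation p of 0.1, the smallest that 3 against 3 libraries allow. Of its 13 protein genes 4 were higher and 0 lower: mt-Co1 (0.45), mt-Atp6 (0.38), mt-Nd1 (0.38) and mt-Cytb (0.31). That count was 1 without replicate 3 at 5 µM, 2 without replicate 1 at 5 µM or replicate 2 at 2 µM, and 8 without replicate 2 at 5 µM. It was also 1 under quantile normalization, where the difference of mt-Co1 was 0.00 (limma adjusted p = 1), 2 with all 30 libraries or a filter of values above 0, and 8 or 9 in fits to day 2 alone or to the 6 libraries compared. Of 40 nuclear genes of the respiratory chain 0 were higher and 3 lower, with a median of -0.01. The lower count was 0 without replicate 1 at 5 µM. Over all genes tested 9.19% were lower.

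The extracellular matrix showed decreases of moderate size. Of 20 collagen genes 10 were lower and 0 higher, with a median of -0.43. Col1a1 went from 62.7, 64.8 and 65.1 to 32.0, 41.0 and 38.9 (-0.77 ± 0.15, limma adjusted p = 0.000362), and Col6a1 from 117, 129 and 145 to 71.4, 82.2 and 60.0. The adjusted p of Col1a1 was 0.219 when the fit took in all 30 libraries. Neither gene overlapped between doses. Col3a1 (-0.10) and the basement membrane chains Col4a1 (0.25) and Col4a2 (-0.07) were not called. Among 37 matrix glycoproteins 10 were lower, including Fbln1 (-0.89), Bgn (-0.54) and Fbn1 (-0.49), and 4 were higher, including Thbs1 (0.34) and Ctgf (0.64). Clec3b, which codes for tetranectin, was the largest of these rises, from 2.86, 1.18 and 1.53 to 7.92, 7.40 and 8.16 (1.67). Among matrix proteases and their relatives 7 of 26 were lower and 2 higher, and the metalloprotease Adam12, linked to myoblast fusion, went from 4.13, 3.45 and 6.76 to 0.175, 0.0800 and 0.661.

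Cytoskeletal genes of the smooth muscle type split. Tagln, a marker of early smooth muscle that myoblasts also express, went from 47.8, 60.0 and 60.0 to 12.5, 19.8 and 18.4 (-1.69 ± 0.15, limma adjusted p = 5.39e-11), and Acta2 from 1991, 2008 and 1966 to 1183, 1230 and 1350. Both fell with each step of dose. The general actins Actb (0.31) and Actg1 (0.28) were higher. Of the 25 members 7 were lower and 3 higher.

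Genes of muscle growth signalling were mostly not called. Of 28 genes of the TGF-beta, BMP and Id group 5 were lower and 1 higher, the receptor Tgfbr1 (0.53), and of 15 genes of the insulin-like growth factor axis 4 were lower and 1 higher, the adaptor Irs1 (0.53). Fst, follistatin, which blocks the growth inhibitor myostatin, went from 47.2, 46.4 and 44.1 to 8.89, 10.4 and 4.06 (-2.50 ± 0.21, limma adjusted p = 1.89e-11), and its controls were at 93.1 to 101. Igf2, the growth factor that muscle cells secrete as they differentiate, went from 148, 180 and 182 to 46.3, 42.1 and 46.4. H19, the imprinted noncoding neighbour of Igf2, fell by 1.16. For all 3 the doses did not overlap, which for Fst was fixed by its choice among the largest falls. Tgfb3 fell by 1.11, and the Id inhibitors of muscle factors, Id1, Id2 and Id3, between -0.31 and -0.18, were not called. In the Notch pathway, which holds progenitors undifferentiated, 5 of 16 were higher and 2 lower. The ligand Jag1 went from 5.93, 6.83 and 5.61 to 12.4, 11.6 and 13.0, the target Heyl from 103, 95.2 and 89.8 to 121, 145 and 140, and Notch2 rose by 0.47. The receptor Notch3 fell by 0.38 and Hes6, a target of muscle factors that promotes differentiation, by 0.86. The higher count was 3 without replicate 3 at 2 µM, and the lower count was 1 without that library, replicate 2 at 2 µM or replicate 3 at 5 µM. Jag1 lost its call without replicate 1 or 3 at 2 µM or replicate 1 or 3 at 5 µM (limma adjusted p from 0.0533 to 0.0711). Heyl lost its call without replicate 3 at 2 µM (0.44, adjusted p = 0.0635) or replicate 2 at 5 µM (0.44, adjusted p = 0.0596). Notch3 lost its call without replicate 2 (-0.38, adjusted p = 0.0614) or 3 (-0.37, adjusted p = 0.0762) at 2 µM or replicate 3 at 5 µM (-0.30, adjusted p = 0.136).

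Of the muscle degradation genes, the ubiquitin ligases moved apart: Trim63 fell from 35.9, 41.6 and 39.7 to 18.8, 14.9 and 19.4, and Fbxo32 rose from 149, 149 and 134 to 221, 204 and 185. Of 27 genes of proteolysis and autophagy 5 were higher and 2 lower, and the higher count was 2 without replicate 3 at 5 µM and 3 without replicate 1 at 2 µM. Of 28 immediate early genes 4 were higher, Nr4a2 (0.87), Jun (0.52), Klf6 (0.51) and Dusp1 (0.50), and 1 lower, Egr3 (-0.97). Egr3 lost its call without replicate 3 at 2 µM (-0.88, limma adjusted p = 0.0577). Nr4a2 lost its call without that library (0.57, adjusted p = 0.231) or replicate 1 (0.76, adjusted p = 0.113) or 2 (0.87, adjusted p = 0.0570) at 5 µM. Glycolysis and hypoxia genes were higher in 6 of 29 members and lower in 1.

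The largest rises outside these lists belonged to genes of unrelated kinds. Hdc, which makes histamine, was at 1.02, 3.61 and 2.68 at 2 µM and at 11.2, 15.2 and 15.1 at 5 µM (2.18 ± 0.28, limma adjusted p = 3.43e-07). Its controls, at 1.78 to 2.17, lay within the 2 µM range. Aqp1, a water channel, went from 86.7, 94.2 and 99.4 to 259, 277 and 268 (1.51 ± 0.09, adjusted p = 7.14e-15), and Tppp3, a tubulin-binding protein, from 203, 205 and 216 to 592, 610 and 707. Both had already risen at 2 µM, from controls of 62.4 to 67.9 and of 105 to 124. Fam102b rose from 39.2, 42.0 and 35.1 to 124, 112 and 94.7, and Sbk2 from 8.58, 9.42 and 9.32 to 24.6, 28.5 and 29.6. These 5 genes were picked among genes whose doses did not overlap, so their lack of overlap was fixed by the choice. Gemin4, part of the complex that assembles spliceosomal RNAs, differed in another way: it was at 15.5 to 19.0 in controls, 1.47, 3.41 and 8.54 at 2 µM and 11.7, 21.0 and 21.0 at 5 µM. The difference of 1.96 between doses thus came with low values at 2 µM, and its call was lost without replicate 1 at 2 µM (1.50, adjusted p = 0.108) or replicate 2 at 5 µM (1.83, adjusted p = 0.0503). Of the other large rises, Ndn was not called without replicate 3 at 2 µM (0.96, adjusted p = 0.0973), and Apcdd1 (1.05, adjusted p = 0.0636) and 1810011O10Rik (0.80, adjusted p = 0.106) were not without replicate 1 at 2 µM.

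The same contrast of doses was measured on day 4 in separate libraries. There 3050 genes (23.8%) were higher at 5 than at 2 µM and 3342 (26.1%) lower. Of the 689 genes higher on day 2, 576 (83.6% of the day 2 set and 18.9% of the day 4 set) were higher on day 4 and 11 were lower. Of the 1178 lower on day 2, 978 (83.0% and 29.3%) were lower on day 4 and 15 were higher. The difference between doses itself changed from day 2 to day 4 in 2674 genes (20.9%) by the limma interaction test, upward in 1304 (10.2%) and downward in 1370 (10.7%).

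Of the 13 embryonic sarcomere genes the difference moved downward in 2 and upward in 0. Of the 42 genes of the mature sarcomere it moved downward in 14 and upward in 1, with a median change of -0.35, and 39 were lower on day 4. Of the 20 fusion genes it moved downward in 9 and upward in 0. Myog was lower by 1.72 on day 4 and the change of its difference was -0.30 (limma adjusted p = 0.132). Tnnt3 was lower by 1.96, a change of -0.01. In the amino acid list, of the 44, the difference moved upward in 29 and downward in 2, which left 12 higher and 17 lower on day 4. Trib3 on day 4 was at 6.74, 6.04 and 8.27 at 2 µM and at 12.1, 17.0 and 15.4 at 5 µM, above rather than below (0.98, adjusted p = 0.00494), a change of 3.35. Atf4 turned likewise, from 284, 287 and 292 to 390, 460 and 452 (0.59, adjusted p = 1.71e-07), a change of 1.54. Asns stayed lower at 5 µM (-0.66) but by less. Ddit3, the stress factor that did not differ on day 2 by the test, was at 7.75, 10.1 and 7.37 and at 42.0, 46.3 and 49.4 on day 4 (2.33).

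**Figure D4:**
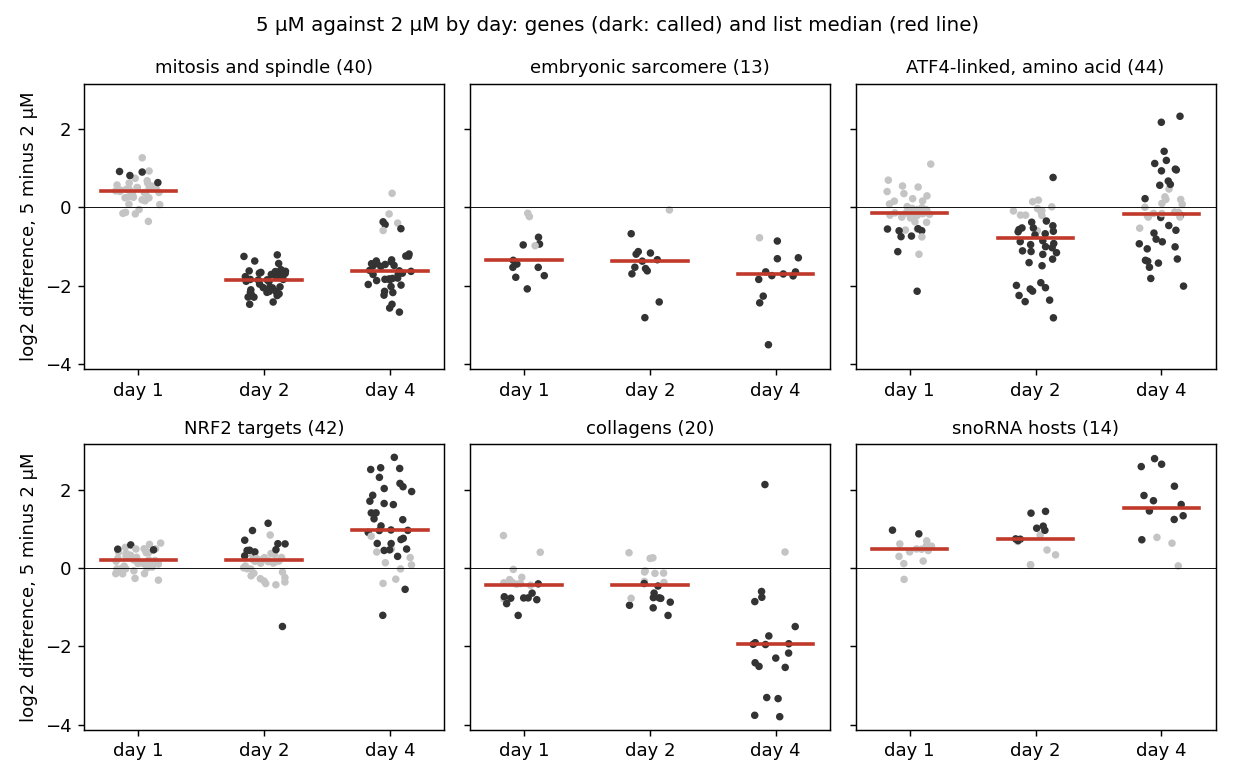
Log2 difference between 5 and 2 µM on days 1, 2 and 4 for the members of 6 gene lists, 1 point per gene, dark where called, with the list median as a red line. The mitosis median goes from 0.43 on day 1 to -1.85 on day 2, and the amino acid list is lowest on day 2. The medians of the NRF2, collagen, small nucleolar RNA host and embryonic sarcomere lists lie furthest from 0 on day 4.

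NRF2 targets were higher in 31 of 42 members on day 4, with a median of 0.96, and the difference had moved upward in 28 and downward in 1. Gstm1 was at 80.6, 68.6 and 78.5 and at 558, 534 and 541 on that day, and Nqo1 and Hmox1, not called on day 2, were higher by 2.16 and 1.08. Metallothioneins widened as well, Mt2 to 2.67. Collagens moved the other way: 18 of 20 were lower on day 4, with a median of -1.95, and the difference had moved downward in 16. Col1a1 was at 63.0, 85.6 and 73.4 and at 7.96, 6.66 and 5.20, a change of -2.53. Tagln was lower by 4.15. Ctgf and Heyl turned from higher on day 2 to lower on day 4 (-0.90 and -1.83), with changes of -1.54 and -2.32. Ccnd1 turned likewise (-0.45, a change of -0.93).

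On day 1, where 2 libraries remained for each dose after the removal of 2 in which 82 and 185 genes below 1 CPM in every other library were at 5 CPM or more, 60 genes (0.468%) were higher at 5 µM and 346 (2.7%) lower. Of the day 2 decreases 243 (20.6%, or 70.2% of the day 1 decreases) were also lower on day 1, and of the increases 26 (3.77% and 43.3%). Embryonic sarcomere genes were already lower in 10 of 13 members on day 1, with a median of -1.35, and Myog by 1.64. Mitosis genes were not: 4 of the 40 were higher on day 1, Ccnb1 by 0.92 (limma adjusted p = 0.00277) among them, and 0 lower, with a list median of 0.43. By the interaction test the difference moved downward from day 1 to day 2 in all 40 mitosis genes, against 180 (1.4%) of all genes, with 83 (0.647%) upward. In the amino acid list 8 were lower on day 1, with a median of -0.14, and the difference moved downward in 15. Trib3 on day 1 had a mean of 1.44 at 2 µM and 1.49 at 5 µM.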

How the data were processed

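RNA-seq of C2C12 cells was analysed from 1 table of 48709 genes and 30 libraries. Per the labels, TRIzol was used for RNA and an Illumina TruSeq kit for the libraries. For the aligner, genome build, strand and scaling, no source used here gives a name. The authors deposited the values as a signal named CPM in the labels. Column sums ran from 892246 to 1079916, so a further scaling per library had been applied, and 100% of values were whole reads within 0.02 of a read, with 18462092 to 26947109 reads per library.

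Genes with at least 1 scaled CPM in 3 libraries were kept (12820). limma 3.58.1 (R 4.3.3) with a mean-variance trend was run on log2(value + 1), 1 mean per group, over 28 libraries (18 residual degrees of freedom), with Benjamini-Hochberg adjustment. Replicate 1 at 2 µM and replicate 3 at 5 µM on day 1 were left out, since 82 and 185 genes at 5 CPM or more there were below 1 CPM in every other library. Tests with edgeR 4.0.16 and DESeq2 1.42.0 on the recovered counts, other scalings, filters and pseudocounts, and leaving out each replicate were alternatives. The count test of edgeR called 647 genes higher and 1119 lower. The model was tested on simulated data.

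Genes named are 35 key genes, the 12 largest called rises and falls with a mean of at least 5 CPM and no overlap of replicates, up to 6 members per list, the 6 largest changes of the difference each way, and list members given with their list. The 40 lists held 1020 members, of which 1010 matched by name and 4 by another symbol. Members and lists were chosen with earlier results of these data known. Lists are described by counts and medians, with no test of their own. Some results are not reported here.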

Additional observations from a re-analysis of the deposited data

Results flagged for a closer look

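For some of the named genes the difference between 5 and 2 µM was not the same on each day, by the limma interaction test. Values are the change of the log2 difference, and a positive one means that the level at 5 µM moved upward relative to 2 µM.

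From day 2 to day 4 the difference moved upward for stress genes: Ddit3 by 2.18 (adjusted p = 4.07e-06), Trib3 by 3.35, Asns by 1.40 and Slc7a11 by 1.76. The same held for the NRF2 targets Gstm1 (2.12), Nqo1 (1.79), Hmox1 (1.07) and Osgin1 (2.67), the metallothioneins Mt1 (1.38) and Mt2 (1.99), and the ubiquitin ligase Fbxo32 (0.89). Among the largest upward changes were Mmp3 (3.05), Tmem173 (2.70), Sim1 (2.68) and Prl2c2 (2.85), whose reads cannot be told from those of its near-identical copy Prl2c3. Tmem173 codes for the protein STING. On day 4 Tmem173 was at 12.4, 12.0 and 8.41 at 2 µM and at 79.2, 88.1 and 101 at 5 µM. Mmp3 and Sim1 were at or near 0 on day 2 at both doses.

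It moved downward for matrix and smooth muscle genes: Col1a1 by -2.53, Col6a1 by -2.93, Col6a2 by -2.81, Col25a1 by -3.20 and Tagln by -2.46. Col25a1 was at 0.495 or less in all 6 libraries of day 2. In muscle genes the change was -0.59 for Myod1, -0.74 for Myh3 and -2.59 for Myl2, and in the others -0.93 for Ccnd1, -0.53 for Top2a, -0.82 for Id1, -2.68 for Rundc3a and -2.63 for Pid1. The call for Top2a (adjusted p = 0.0365) was lost without replicate 2 at 2 µM (-0.52, adjusted p = 0.0683), replicate 3 at 2 µM (-0.51, adjusted p = 0.0702) or replicate 1 at 5 µM (-0.40, adjusted p = 0.134) of day 2. That for Id1 (adjusted p = 0.0358) was lost without any 1 of these 3 or of replicates 2 and 3 at 5 µM, with adjusted p from 0.0504 to 0.0914.

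From day 1 to day 2 it moved downward for Ccnb1 (-3.13), Top2a (-1.98), Mki67 (-2.08), Asns (-1.32) and Tagln (-1.02). It moved upward for Myf5 (0.73), Ccnd1 (0.64), Acta1 (0.59), Actc1 (0.71) and Hspa5 (0.46).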

How the results depend on the processing

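Of 54 key genes and largest changes called on day 2, 45 kept their call and direction under every alternative run, and 0 of the 212 named genes called that day reversed. The 689 higher calls became 1144 in a fit to the 9 libraries of day 2, and 431 to 571 with 1 of the 6 libraries left out. The 1178 lower calls ranged from 1011 to 1597 over the other settings and from 875 to 1025 with 1 library left out. Calls of 2 against 0 µM, 130 in all, became 66 with all 30 libraries, 382 with day 2 alone, 214 with a pseudocount of 5, 239 with DESeq2, and 56 to 142 with 1 library left out. Calls of 5 against 2 µM on day 1, 406 in all, became 717 with all 30 libraries and 624 with DESeq2. The change of the Mki67 difference from day 2 to day 4 was 0.03 and uncalled, but -2.93 (adjusted p = 0.015) with edgeR and -3.07 (adjusted p = 0.0069) with DESeq2. Mki67 was at 0.141 scaled CPM or less at 5 µM on day 4. The changes for Mmp3, Sim1, Col25a1 and Myl2 were not called with edgeR or DESeq2. The mitochondrial difference was 1.67 to 2.52 points with 1 library left out, and the changes of the difference gave 1085 to 1211 upward and 1118 to 1258 downward calls from day 2 to 4 and 218 to 243 from day 1 to 2.

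With the replicate number as a block, 708 genes were higher and 1192 lower at 5 than at 2 µM. Deviations of same-numbered libraries from their group means correlated at 0.03, 0.009 and 0.02. With 3 libraries in each group, such values cannot show whether same-numbered libraries shared a culture or batch. All libraries but replicate 2 of each dose correlated best with their own number in the other dose.

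Statements on genes near 1 scaled CPM are limited, because the 1 added to each value compresses differences on this log2 scale. In the 6 libraries compared, 1 read was worth 0.0392 to 0.0441 scaled CPM.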
